A study of Mus musculus with 7 samples.

Results

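Crosslinks of the translation reinitiation factor DENR were examined in the 5′ UTRs of protein-coding mRNAs, as 232 distinct nucleotides in 137 genes of the mouse genome (build mm10). A position was taken where a deposited site lay, on the same strand, in a 5′ UTR exon of a protein-coding transcript of GENCODE release M21 and in no coding sequence (CDS) on that strand. Sites on the mitochondrial chromosome, in an assembled pre-rRNA fragment on chromosome 17 and in Lars2 and Acvr2b were left out. The 7 lists together held 23288 distinct positions, of which 2728 lay in the CDS or UTRs of such mRNAs after the same removals, 1463 of them in the CDS and 1033 in the 3′ UTR.

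The cells were NIH3T3, a mouse fibroblast line. Individual-nucleotide crosslinking and immunoprecipitation (iCLIP) uses ultraviolet light to link a protein covalently to RNA it contacts (254 nm at 150 mJ/cm2 in every library), and the end of the truncated cDNA marks the crosslink. Anti-DENR immunoprecipitates came from cells transiently transfected with Denr in a FLAG-Venus vector (DENR overexpressing, n = 3 libraries). Others came from cells without transfection, in which the endogenous protein was pulled down (non-transfected, n = 2). The study's methods name 1 dish for overexpression and more for the non-transfected cells, and do not say whether this was per library. Non-specific IgG was used for 2 control libraries. The transfected plasmid adds Denr mRNA and protein to all 3 DENR overexpressing libraries, so that comparisons between the groups carry both a difference in protein level and in input.

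The 5′ UTR is the stretch between the cap of an mRNA and the start codon of its main protein, and the small ribosomal subunit scans it from the cap. Many 5′ UTRs carry upstream open reading frames (uORFs), short reading frames with a start and a stop codon of their own. Ribosomes that finish a uORF can stay on the mRNA, scan on and initiate again, and DENR with its partner MCTS1 acts on small subunits after termination, removing the deacylated tRNA so that they can be reused. A crosslink in a 5′ UTR therefore falls where such ribosomes can travel. Most reads of the study mapped to ribosomal RNA, and the authors judged those on mRNAs too few to define specific binding sites.

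The 5′ UTR windows on which the results turn are printed 5′ to 3′ on the RNA strand, as DNA letters read from the GENCODE transcripts, with the listed bases in capitals. The base composition peaked 1 nt 3′ of the listed bases and whether the crosslinked base is the listed one or its neighbour is not given in the sources used here, so distances of single bases may be off by 1 nt. The first 5 recurred between libraries.
Ppip5k2, chr1:97769943-97769971, minus strand: agagccgcctcggcACaagcgtccttccc
Zfhx3, chr8:108715026-108715054, plus strand: gccgcgccccgtgGgTGaatccccgccgc
Pappa, chr4:65124510-65124538, plus strand: gggcgcaggggggGCGGgggggaccgtcg
Nek11, chr9:105395372-105395400, minus strand: tgcggccgcctcctCAccctgctcgcttc
Zfp109, chr7:24237442-24237470, minus strand: catctcagctgctCCTggagccccgggga
The next 4 show the crosslinks of Col1a2 in its U-rich stretch and at the stop codon of a short uORF, and those of Rps9 and S100a6 around uORF stop codons.
Col1a2, chr6:4505677-4505705, plus strand: aggcaggTctgggcttTatTATtttagca
Col1a2, chr6:4505755-4505783, plus strand: gcatgcctgcgcccgccAggtGATAcctc
Rps9, chr7:3704281-3704309, plus strand: acatgcgccacaagattattttTtaaAac
S100a6, chr3:90613746-90613774, plus strand: cttctagcccaGtgatcaGtcatggcatg
The last 5 show a position close to the annotated cap (Actb), runs of T (Rbm8a, Bcl2l1 and Ldha) and a GA repeat (Hoxb6).
Actb, chr5:142906726-142906754, minus strand: tatAaaacccggcggcgcaacgcgcagcc
Rbm8a, chr3:96630234-96630262, plus strand: tttttttgtTTTttttttcaAatgactct
Bcl2l1, chr2:152830488-152830516, minus strand: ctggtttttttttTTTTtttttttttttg
Ldha, chr7:46847505-46847533, plus strand: gtcagcgtttttTTTTttttttttttaaa
Hoxb6, chr11:96292580-96292608, plus strand: gagagagagaGaGaGaGaGagagagagag

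DENR overexpressing replicates 1, 2 and 3 listed 8, 108 and 107 5′ UTR positions, and non-transfected replicates 1 and 2 listed 12 and 20. Replicates 2 and 3 of the DENR overexpressing group thus supplied most of the positions, and 202 of the 232 were listed in that group alone, 23 in the non-transfected group alone and 7 in both. The libraries stood in the same order by the length of their lists, which ran from 4012 to 16137 sites in the DENR libraries. The split of 202, 23 and 7 was not made for all listed positions, so it cannot be read as particular to 5′ UTRs. Neither IgG library listed a 5′ UTR position or any site within 15 nt of one. The IgG lists held only 19 and 234 sites, 3 of them in exons of such mRNAs, and 0 of 3 leaves an exact 95% upper limit of 70.8% for the 5′ UTR share, so that the share under IgG was not measurable at this depth. The lists hold only sites past the authors' threshold and give no read totals, so the depth of the libraries is unknown and the absence of a site is not the absence of a crosslink. Among genes that mark cell types, 8 of 10 fibroblast markers had a site in an mRNA exon (Pdgfrb and Lgals1 had none), against 0 of 10 epithelial, immune, endothelial and hepatocyte markers, although site lists do not measure expression. By comparison, 6.92% of 20899 protein-coding genes had such a site, so 0 of 10 is close to the share over all genes.

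**Figure D1:**
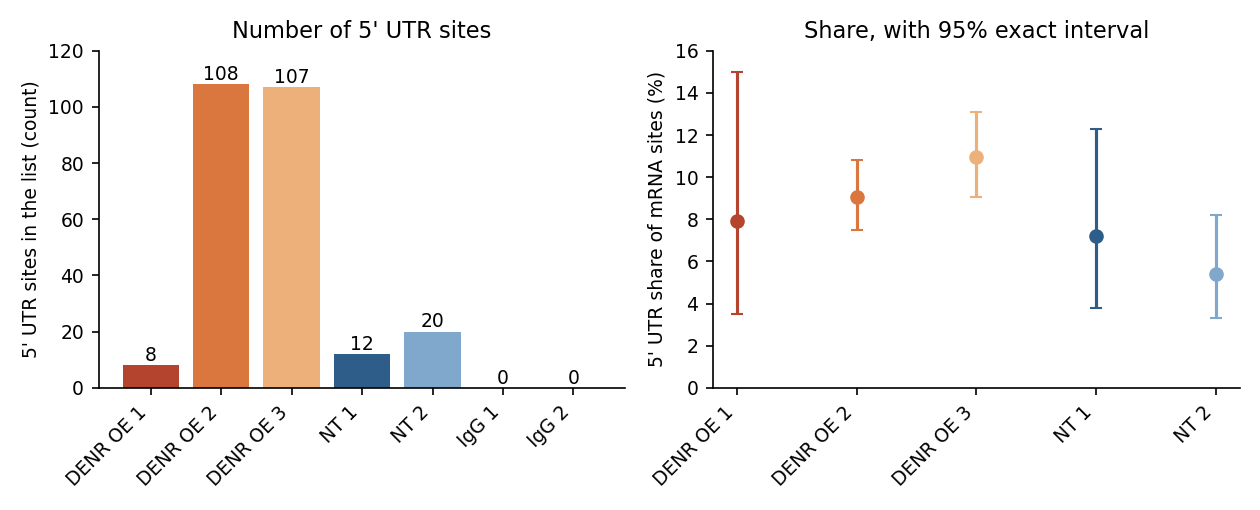
Left, the number of 5′ UTR sites in each of the 7 lists (DENR OE, DENR overexpressing; NT, non-transfected). Right, the percentage of exonic mRNA sites (5′ UTR, CDS and 3′ UTR) that lay in 5′ UTRs, with exact 95% binomial intervals; the 3 DENR overexpressing libraries sit between 7.92% and 11.0%, the non-transfected libraries at 7.23% and 5.41%, and all intervals overlap with at least one of the other group.

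The share of exonic mRNA sites that lay in 5′ UTRs was compared between the groups, since overexpression could change where on the mRNA the protein is found. It was 7.92% (exact 95% interval 3.48% to 15.0%, 8 of 101 sites), 9.06% (7.49% to 10.8%, 108 of 1192) and 11.0% (9.06% to 13.1%, 107 of 977) in DENR overexpressing replicates 1, 2 and 3. In non-transfected replicates 1 and 2 it was 7.23% (3.79% to 12.3%, 12 of 166) and 5.41% (3.33% to 8.23%, 20 of 370). The libraries of the groups did not overlap, but the lowest DENR overexpressing value and the highest non-transfected value lay within each other's intervals, which cover counting error only and treat neighbouring sites as independent. The difference of the means was 2.99 percentage points (9.31% ± 1.53, SD, n = 3, against 6.32% ± 1.29, SD, n = 2), with p = 0.2 in a two-sided exact permutation test (adjusted p = 0.36 over 9 tests), where 0.2 is the smallest p that 3 against 2 libraries allow. With sites of a single annotation only, the difference was 0.986 percentage points (p = 0.6, exact permutation test). Nothing in the labels states that the libraries came from separate cultures, and the p-values measure the spread between these libraries.

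The scores of 5′ UTR positions were low, and typical of their lists at the median. The score of a site is its height as deposited. Its median over 5′ UTR sites was 2 in each of the 5 DENR libraries, the same as over all sites of those lists. The highest 5′ UTR score was 12, in lists whose highest score ranged from 237 to 1564, and 5′ UTR sites carried between 0.0673% and 0.290% of the summed score of a list. For 92 of the 232 positions the score was never above 1, and 13 positions reached 5 or more. Fam217b (score 3, non-transfected replicate 1) and Ppp1r10 (score 3, DENR overexpressing replicate 1) were among the 10 best ranks of score within a list. Beside CDS sites of the same library, the mean log2 score of 5′ UTR sites was higher by 0.10 (0.99 ± 0.16 against 0.89 ± 0.19, SD, n = 5 libraries), higher in 3 of 5 libraries (exact sign-flip permutation test over libraries, two-sided, p = 0.375, adjusted p = 0.482). This difference was 0.05 without non-transfected replicate 1, 0.06 without DENR overexpressing replicate 1 and 0.25 with sites merged within 15 nt.

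A small set of nucleotides recurred between libraries. Of the 232 positions, 219 were in 1 list, 7 in 2, 3 in 3, 2 in 4 and 1 in all 5 DENR lists. Of all listed positions, 65.4% were in 1 list and 7.52% in 5, against 94.4% and 0.431% of the 5′ UTR positions. Repeat was thus rarer in 5′ UTRs than over the lists as a whole. Among CDS positions, 98.6% were in 1 list, but this share is without Lars2 and Acvr2b, which the shares over all listed positions include. The 13 repeated positions lay in 7 genes. Ppip5k2 encodes an inositol pyrophosphate kinase, and its 840-nt 5′ UTR held the only position of all 5 DENR lists, 385 nt before the start codon. Its scores there were 4, 6 and 9 in DENR overexpressing replicates 1, 2 and 3 and 5 and 2 in non-transfected replicates 1 and 2. The neighbouring base, 386 nt before the start codon, scored 12 and 4 in DENR overexpressing replicates 2 and 3 and 2 and 3 without transfection, and was not listed in DENR overexpressing replicate 1. This dinucleotide, listed with and without overexpression, lay 78 and 77 nt after the nearest upstream uORF stop codon and in none of the 9 AUG uORFs of this 5′ UTR.

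Zfhx3, which encodes a large zinc finger and homeobox transcription factor, had its leading position 335 nt before the start codon. Its scores were 1, 1 and 12 in DENR overexpressing replicates 1, 2 and 3 and 3 in non-transfected replicate 2. The base before it scored 2, 3 and 2 in the libraries with overexpression. The signal was again confined to a few neighbouring bases, 3 positions within 4 nt, in the gap between 2 groups of overlapping uORFs, although another transcript of the gene has an intron there. Pappa, a secreted metalloprotease that cleaves IGF-binding proteins, carried 4 neighbouring positions 16 to 19 nt before its start codon, inside a G-rich run. The outermost of these, 19 nt away, scored 6 and 3 in DENR overexpressing replicates 2 and 3, and 3 in non-transfected replicate 2. Nek11, a NIMA-related kinase of the DNA damage checkpoint, had a score of 3 in each of the 3 DENR overexpressing libraries at 1 base, 330 nt before the start codon and inside a 219-nt uORF, and was in neither non-transfected list.

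The other repeated positions were weaker and in 2 lists each. Those of the collagen gene Col1a2 shared DENR overexpressing replicate 2 (scores 3 and 1) with non-transfected replicate 2 (2 and 1), 144 and 143 nt before the start codon. Those of Tmed7, a vesicle trafficking gene, and of the zinc finger gene Zfp109 were in DENR overexpressing replicates 2 and 3 with scores of 1 or 2. The sequence around the Zfp109 positions had relatives in other zinc finger genes (Zfp108 and Zfp235), so that reads of this family may be split.

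**Figure D2:**
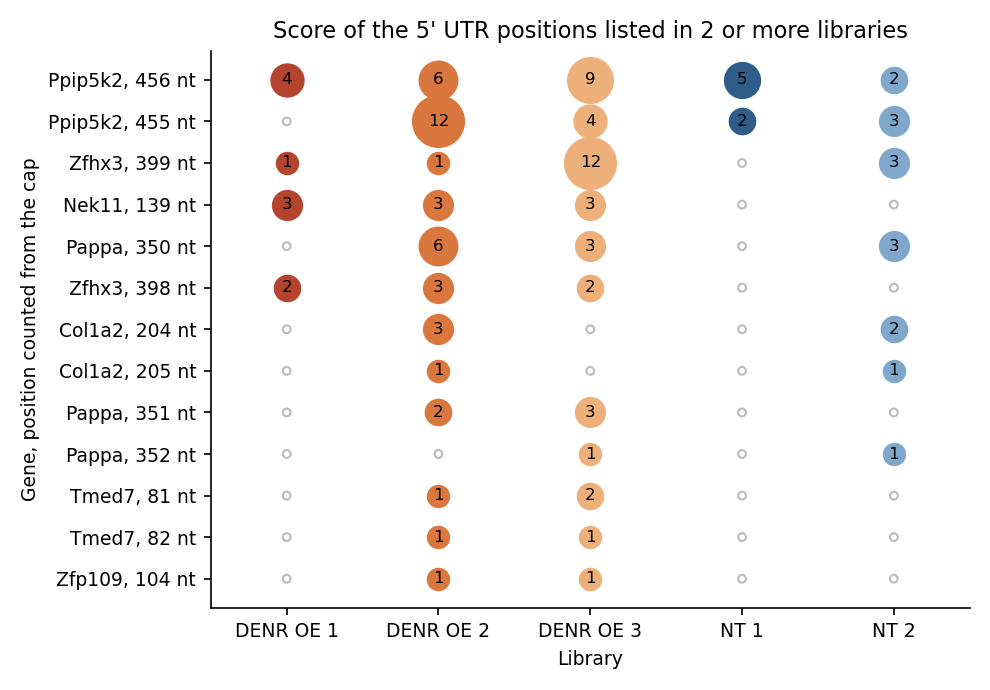
Scores of the 13 positions in 2 or more lists, by library, with each row a position named by gene and distance from the cap in nt; filled circles carry the score and grow with it, and open circles mark libraries without the site. The 2 Ppip5k2 rows hold 9 filled circles, and non-transfected replicate 1 has filled circles in these rows only.

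Repeat between libraries was compared with that of CDS sites. In DENR overexpressing replicates 1, 2 and 3, 50.0%, 11.1% and 10.3% of the 5′ UTR sites were listed in another DENR library, and in non-transfected replicates 1 and 2 16.7% and 35.0% were. For CDS sites the values were 3.51%, 2.89%, 2.64%, 4.35% and 8.64% in the same order. The 5′ UTR value was higher in 5 of 5 libraries, by 20.2 percentage points on average (24.6% ± 17.3 against 4.41% ± 2.46, SD, n = 5), with p = 0.063 in the exact sign-flip permutation test, the smallest it allows (adjusted p = 0.188). A position shared between lists counts in each of them, so the 5 values are not independent, although the test treats them so. The Ppip5k2 base found in all 5 DENR lists raised every one of them. The difference rested on the positions just described. Without Ppip5k2, Zfhx3, Pappa, Nek11 and the repeat-bearing Hoxb6 it was 0.102 percentage points. These genes were chosen after the values were seen, 4 of them for holding repeated positions, and left out on the 5′ UTR side only, so a fall was fixed by the choice and shows only where the difference lay. The removal of Acvr2b also bore on it, since that gene's CDS held 12 to 20 sites per DENR list, and with these kept the difference was 11.5 percentage points (p = 0.063, exact permutation test). In the 3′ UTR, 4.63% ± 1.90 (SD, n = 5) of sites were listed in another DENR library. That value is without 187 3′ UTR positions of Lars2 or Acvr2b, and it was not computed with these kept.

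At the level of genes, 123 of the 137 had 5′ UTR positions in a single library and 14 in 2 or more, 7 of these at different bases. DENR overexpressing replicates 2 and 3 shared 10 genes, which were 15.6% of the 64 genes of replicate 2 and 14.3% of the 70 of replicate 3. Of the 9 genes of non-transfected replicate 2, 5 (55.6%) were also among those of DENR overexpressing replicate 2. For non-transfected replicate 1 it was 2 of 8 genes (25%), and the non-transfected replicates shared 1 gene with each other. Pabpc1, the poly(A)-binding protein, whose mRNA is known for an A-rich autoregulatory stretch in the 5′ UTR, had positions 5 nt apart in DENR overexpressing replicate 2 (score 1) and non-transfected replicate 1 (score 3). In Rbm8a, a core member of the exon junction complex, DENR overexpressing replicates 2 and 3 came within 9 nt of each other in a T-rich stretch. For Tubb5, a beta-tubulin, and Pcdh19, a protocadherin, the nearest positions of different libraries were 1744 nt and 509 nt apart on the genome. In Nfib and Csnk1a1, named here after their values were seen, they were 15 and 18 nt apart.

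Genes with many positions were mainly genes with 1 dense patch. Of the 137 genes, 81 had 1 position, 37 had 2 and 19 had 3 or more, and over all libraries together positions within 15 nt of each other merged into 143 patches, of which 58 held more than 1 position. Col1a2 had the most, with 10 positions over 96 nt, followed by Col3a1 with 6, Hoxb6 and Rbm8a with 5, and Bcl2l1, Ldha, Matr3, Pappa, Pcdh19 and Tubb5 with 4 each. The positions of Hoxb6, a homeobox gene, were in DENR overexpressing replicate 2 alone, each with a score of 1, at alternate bases of a GA repeat that is found in many other transcripts, and their assignment to this gene is uncertain. Those of Bcl2l1, which encodes the apoptosis inhibitor Bcl-xL, and of Ldha, lactate dehydrogenase A, were 4 adjacent bases in long runs of T, in DENR overexpressing replicate 2 (scores 1 to 3) and replicate 3 (1 each). The sequence around the Bcl2l1 positions had relatives in 95 other genes, so their assignment is uncertain as well.

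The positions of Col1a2 fell into 2 patches, 1 of them at a short uORF. In Col1a2, which encodes the second chain of type I collagen, non-transfected replicate 2 listed 5 bases, with scores of 1 or 2, around the stop codon of a 21-nt uORF, 61 to 68 nt before the start codon. Of these bases, 3 were in the uORF, up to the last base of its stop codon, and the others were 1 and 2 nt after it. Its other 5 positions, 142 to 156 nt before the start codon, lay in a U-rich stretch that is intronic in another transcript and were in DENR overexpressing replicate 2 and non-transfected replicate 2. The mRNA was also crosslinked elsewhere, with 14 CDS and 13 3′ UTR sites summed over libraries.

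**Figure D3:**
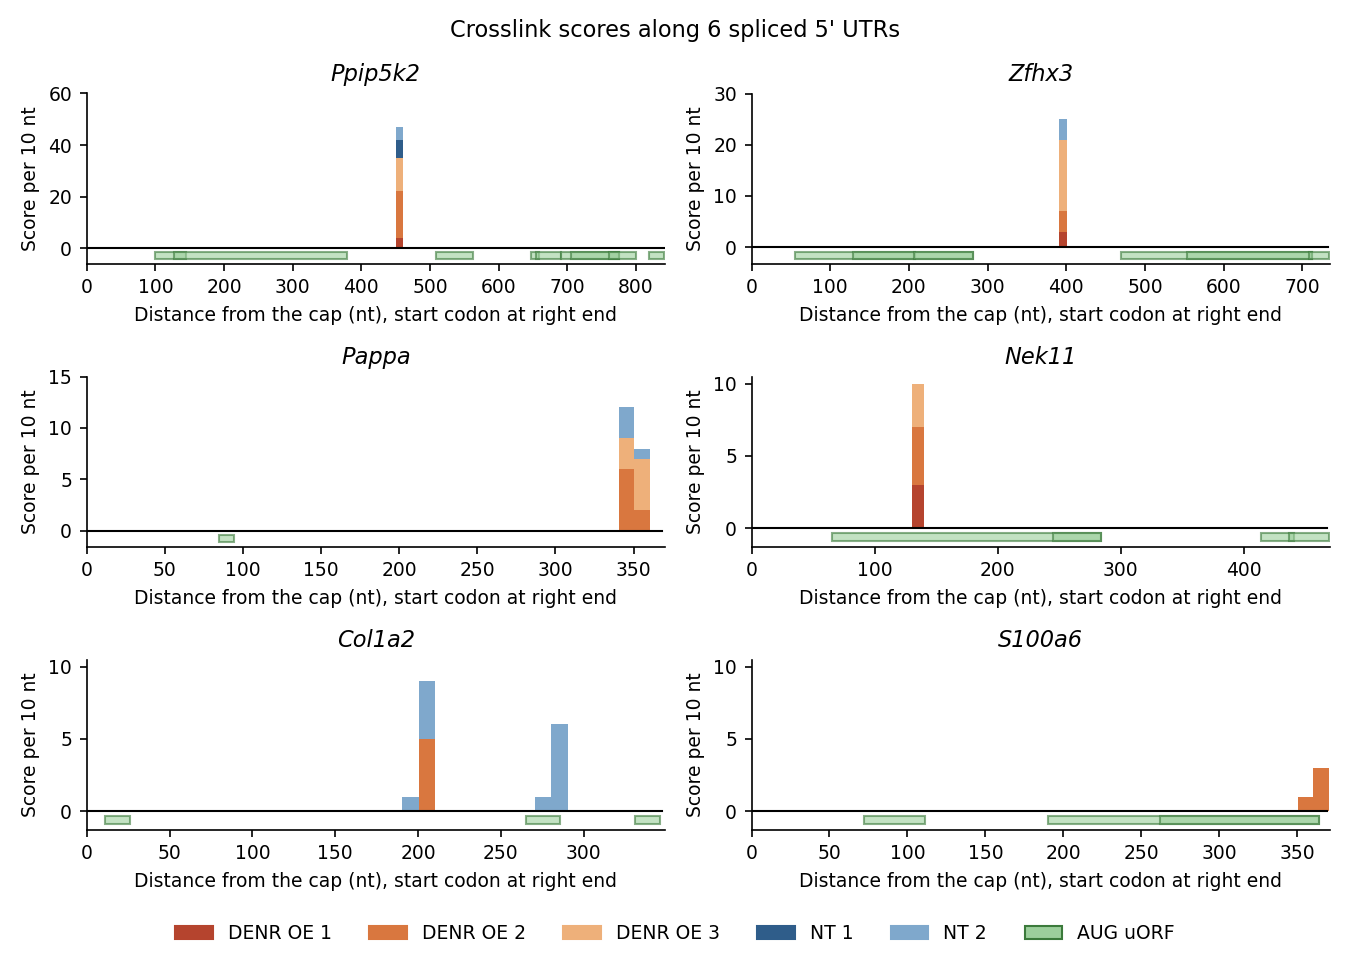
Summed score per 10 nt (y axis) along the spliced 5′ UTR (x axis, distance from the cap in nt, with the start codon at the right end) of 6 genes, stacked by library; green boxes below the line are AUG uORFs, cut at the start codon where they run on. Ppip5k2, Zfhx3 and Nek11 each have a single 10-nt bar, with a summed score of 47, 25 and 10, whereas Col1a2 has a second group of bars over a uORF of 21 nt.

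Position on the 5′ UTR was described by the distance to both ends. Over the 232 positions the distance to the start codon had a median of 163 nt (quartiles 69.5 and 335 nt) and that to the cap a median of 193 nt (95.3 and 343 nt), on 5′ UTRs with a median length of 391 nt. The number of positions per 1000 nt of the 139 5′ UTRs involved was 6.63 in the 50 nt before the start codon, 5.46 from 51 to 100 nt, 3.46 from 101 to 200 nt, 3.01 from 201 to 400 nt and 1.89 beyond. Counted from the cap it was 4.03, 4.87, 4.58, 4.33 and 1.16 over the same ranges. The nearest 50 nt to the start codon held 46 positions of 27 genes, of which 24 were listed in DENR overexpressing replicate 2, 23 in replicate 3, and 1 and 2 in the non-transfected replicates. These densities are descriptions, since only 5′ UTRs with a position enter them.

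The positions closest to the start codon came from many genes. In all, 26 positions of 15 genes were within 30 nt of it. Ranbp3l had a position 2 nt before it (score 3) and S100a6, a calcium-binding protein, had 1 at 3 nt (score 3), both in DENR overexpressing replicate 2. The second S100a6 position lay 3 nt before the end of a 102-nt uORF, and the nearer one 4 nt after it. Flii and Idh3g, a gelsolin-family protein and a subunit of mitochondrial isocitrate dehydrogenase, had positions at 6 nt, Cdk11b, a cyclin-dependent kinase, at 8 nt and Trove2, the RNA-binding Ro60 protein, at 10 nt. Mapk7 and the heterochromatin protein gene Cbx5 had positions at 12 nt, and Jarid2, of the Polycomb complex, at 13 nt. Apart from Pappa, none of these 15 genes had a position near the start codon in more than 1 library. A position in Taf1c, 20 nt before the start codon, had the highest score in this window (9, in DENR overexpressing replicate 2), and was named after its value was seen.

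Near the cap there were fewer positions. The first 30 nt held 16 positions of 13 genes, and 4 were within 5 nt of the annotated cap. In Wbp2 the first base itself was listed (score 3, DENR overexpressing replicate 3), and Matr3, a nuclear matrix RNA-binding protein, and Espn, an actin-bundling protein, had positions at the third base with a score of 2. Actb, beta-actin, had the largest score close to an annotated cap, 11 at the fourth base in non-transfected replicate 2, and was in no other library. Its annotated transcript begins with the TATAAAA of the printed window. Whether the mRNA in these cells starts there was not tested, so the distance to its true cap is unknown.

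**Figure D4:**
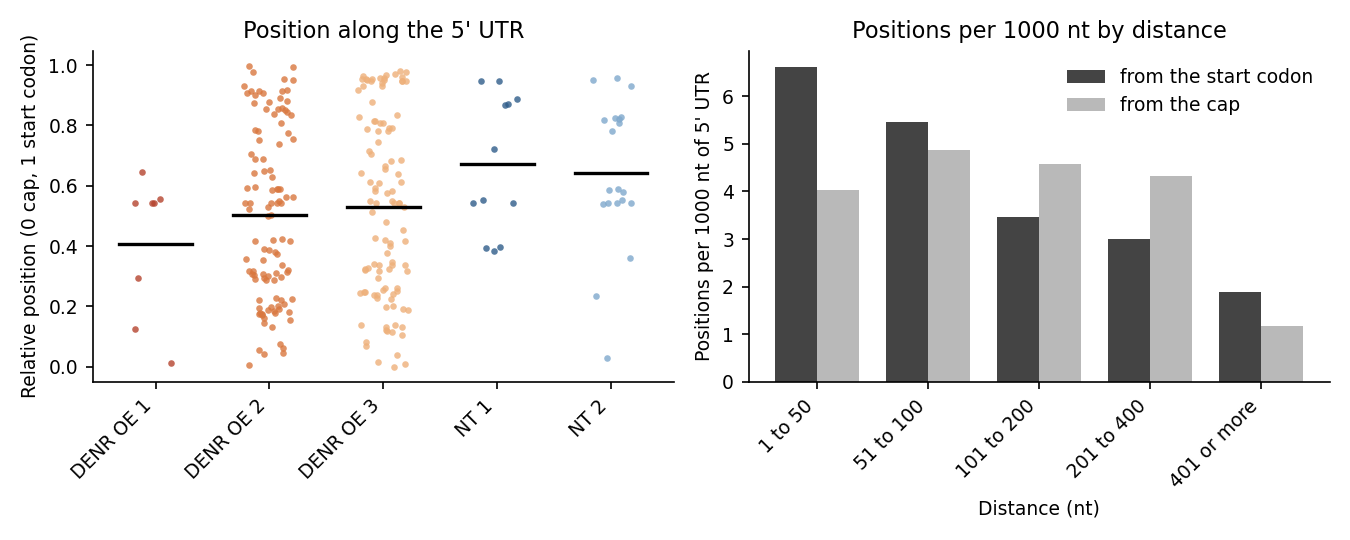
Left, relative position of every 5′ UTR site (0 at the cap, 1 at the base before the start codon) by library, with a line at the library mean, which ran from 0.408 in DENR overexpressing replicate 1 to 0.671 in non-transfected replicate 1. Right, positions per 1000 nt of 5′ UTR by distance in nt from the start codon (dark) and from the cap (light), falling from 6.63 to 1.89 away from the start codon.

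The groups were then compared for position. The mean relative position was 0.408, 0.504 and 0.529 in DENR overexpressing replicates 1, 2 and 3, against 0.671 and 0.641 without transfection. Both non-transfected libraries were nearer the start codon than all 3 DENR overexpressing ones, a difference of -0.18 (0.480 ± 0.0636 against 0.656 ± 0.0214, SD, n = 3 and 2), with p = 0.2 in the two-sided exact permutation test, the smallest possible (adjusted p = 0.36). The absolute distance did not separate them, with medians of 333, 211 and 158 nt against 232 and 125 nt and a difference of mean log10 distance of 0.107 (p = 0.6, exact permutation test, adjusted p = 0.675). It was 0.0214 without DENR overexpressing replicate 1, 0.0508 without non-transfected replicate 2, and 0.164 and 0.162 without DENR overexpressing replicate 3 and non-transfected replicate 1. Over the 5 DENR libraries the mean relative position exceeded the middle of the 5′ UTR by 0.0504, in 4 of 5 libraries (p = 0.313, exact sign-flip permutation test, adjusted p = 0.469). It was 0.0203 and 0.0279 without non-transfected replicate 1 or 2, and 0.0859 without DENR overexpressing replicate 1. With each 5′ UTR cut into 5 equal parts, these held 40, 56, 41, 33 and 62 positions from the cap to the start codon.

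The position relative to uORFs was of interest because DENR acts after uORF termination. A uORF was an AUG with an in-frame stop codon, at least 9 nt long with the stop. Of the 232 positions, 184 were in 5′ UTRs with such a uORF: 56 (24.1%, 33 genes) lay inside one, 78 (33.6%) after a uORF stop codon and outside all uORFs, and 50 (21.6%) before the first. Those after a stop codon were a median of 82 nt from it, and 21 were within 50 nt. In DENR overexpressing replicates 1, 2 and 3, 25%, 19.4% and 28.0% of the sites were inside a uORF, against 43.6%, 27.7% and 29.2% of the length of the same 5′ UTRs. In non-transfected replicates 1 and 2 the shares were 8.33% and 20%, against 55.3% and 30.8% of the length.

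The share of sites inside uORFs was below the share of length in 5 of 5 libraries, and the mean difference was -17.2 percentage points (20.2% ± 7.51 against 37.3% ± 11.8, SD, n = 5), with p = 0.063 in the exact sign-flip permutation test, the smallest possible (adjusted p = 0.188). Without non-transfected replicate 1, the library with the largest gap, it was -9.72 percentage points. The 5′ UTRs of that library included a long one of the vomeronasal receptor gene Vmn1r85 with 75 uORFs, a gene named after its values were seen. The difference was -10.4 points with the expected share taken from each site's own 5′ UTR (p = 0.063, exact permutation test). With single-annotation sites it was -13.6 points (p = 0.188, exact permutation test). Without Ppip5k2, Zfhx3, Pappa, Nek11 and Hoxb6 it was -5.31 points (p = 0.875, exact permutation test). Where CUG, GUG and UUG starts were also counted it was -0.516 points (p = 0.875, exact permutation test).

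Around uORF stop codons, 23 positions of 13 genes (9.91%) lay within 5 nt of the last base of a stop codon, a stretch that made up 5.53% of the 5′ UTR length. Within 10 nt it was 12.9% of positions against 10.3% of length. Col1a2 supplied 5 of the 23, and the others included Rps9, a protein of the small ribosomal subunit, with 1 position 3 nt before the end of a 24-nt uORF (score 2) and 1 just after it (score 3), both in DENR overexpressing replicate 2. The latter also lay inside a 252-nt uORF that runs into the CDS and is counted among the positions inside uORFs. The window was chosen after the values were seen and was not tested.

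Base composition at the positions was compared with that of the CDS and 3′ UTR. Uridine made up 38.8% of the listed bases and 47.4% of the bases 1 nt 3′ of them, against 20.7% on average in the same 5′ UTRs. The peak 1 nt downstream was found on both genomic strands (43.0% and 52.9%) and also in CDS (38.1%) and 3′ UTR sites (64.9%), and guanosine fell to 9.05% there. By library, uridine at the listed base of 5′ UTR sites was 25%, 38.9% and 36.4% in replicates 1, 2 and 3 with overexpression and 41.7% and 25% in replicates 1 and 2 without transfection. The difference from CDS sites was 0.824 percentage points (33.4% ± 7.89 against 32.6% ± 6.80, SD, n = 5, p = 0.813, exact permutation test, adjusted p = 0.813), and its sign changed with several settings, for example to -8.24 where only sites with a single annotation were used.

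**Figure D5:**
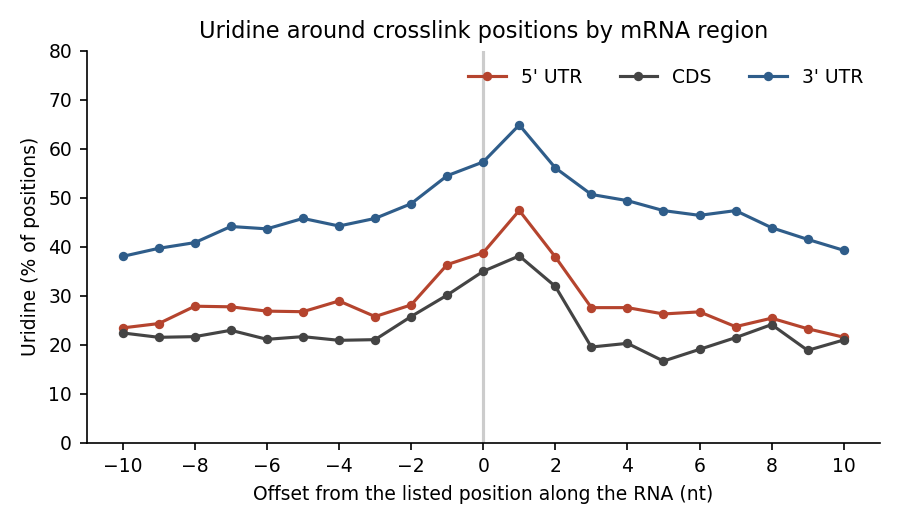
Percentage of positions with uridine (y axis) at each offset from the listed base along the RNA (x axis, nt), for 5′ UTR, CDS and 3′ UTR positions pooled over libraries. All 3 curves peak at an offset of 1 nt, at 47.4%, 38.1% and 64.9%.

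Over the 31 nt centred on the sites, the mean GC content was 69.8%, 53.7% and 55.5% in DENR overexpressing replicates 1, 2 and 3, and 63.2% and 64.4% without transfection, against 49.8% to 53.0% for CDS sites. The difference was 9.52 percentage points (61.3% ± 6.63 against 51.8% ± 1.23, SD, n = 5), higher in 5 of 5 libraries (p = 0.063, exact permutation test, the smallest possible, adjusted p = 0.188), and 5.84 points without the 5 genes left out above. The 5′ UTRs themselves had a GC content of 59.8% averaged over positions, and the windows around the positions 54.5%.

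Annotation split the positions into 2 unlike sets. At 144 positions (91 genes) every protein-coding transcript there had a 5′ UTR, whereas 88 (48 genes) were intronic in another transcript, so that crosslinks to spliced and unspliced RNA cannot be told apart. The first set had 28.5% uridine at the listed base and a mean GC content of 61.4%, and the second 55.7% and 43.1%. Of 35 positions with a run of 5 or more T within 15 nt, 30 belonged to the second set, among them those of Rbm8a, Bcl2l1 and Ldha. Of the 13 repeated positions, 9 were in the first set and 4, in Zfhx3 and Col1a2, in the second. In 208 positions the 31-nt sequence occurred in a single gene's transcripts, and 24 had a further copy. Over 61 nt, 44 positions had relatives in transcripts of other genes.

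The genes with a 5′ UTR position were 137 of 20899 protein-coding genes with an annotated 5′ UTR, or 0.656%, and 35 of them also had a CDS or 3′ UTR site. Of 24 cytoskeletal and matrix genes of fibroblasts, 3 (Actb, Col1a2 and Col3a1) had one, and of 12 elongation factors and chaperones 2 did: Eef1b2, which serves nucleotide exchange on the elongation factor, with adjacent bases 51 and 52 nt before the start codon in non-transfected replicate 1, and Npm1, nucleophosmin, in DENR overexpressing replicate 3. Among 84 ribosomal protein genes these were Rps9 and Rpl18, among 68 RNA-binding and splicing genes the helicase gene Ddx42 (score 4, non-transfected replicate 1), and among 43 initiation factor genes Pabpc1. Expression was not measured here, so these counts do not compare binding between groups of genes.

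Genes with a known place in reinitiation or uORF control were mostly without a 5′ UTR position. Of 13 mRNAs known for uORF control under stress, only Azin1, the antizyme inhibitor of the polyamine pathway, had positions, 2 adjacent bases in non-transfected replicate 1 (scores 3 and 1) before its first AUG uORF, in sequence with a copy in another transcript. Atf4 and Atf5 had none in any exon. No position was found in the 5′ UTRs of Denr, Mcts1 and Eif2d, in 18 circadian clock genes including Clock and Cry1, or in the 9 genes whose 5′ UTRs the study put into reporters (Clock, Klhdc8a, Etaa1, Map2k5, Lrrc28, Fth1, Rpl30, Deaf1 and Cry1). Those 9 had no CDS or 3′ UTR site either. Denr itself had 4 CDS sites and no site in its UTRs. Whether the CDS sites lay on endogenous Denr mRNA or on RNA of the transfected plasmid was not tested. With 0.656% of genes marked and the depth unknown, an absence from these lists cannot be read as an absence of contact.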

How the data were processed

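iCLIP libraries of NIH3T3 cells were grouped by their titles (3 DENR overexpressing, 2 non-transfected, 2 IgG). Per the study's methods, the authors mapped reads to mm10 with Bowtie 0.12.7 (the submitters' processing notes name Bowtie2), dropped reads that repeated both a molecular barcode and a start, and called sites with the iCount peaks function. Per the file headers, which 6 of the 7 lists carry, calling was per library with 100 permutations, a 15-nt flank and a false discovery rate of 0.05. The methods name an option that takes regions as one, whereas the headers say that they were taken separately. Each deposited score is an integer, negative on the minus strand, that the authors took as the height of the site and did not scale to library size. Sites below their threshold are not listed, so depth is unknown.

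Positions were placed on GENCODE M21, which uses the same build. Where several transcripts applied, 1 was chosen by annotation rank. Bases, GC content and copies were read from transcript sequences, and relatives found with blastn 2.17.0 (e-value up to 1e-05, 61 nt). Values were averaged per library. Groups were compared by exact permutation tests, and regions by exact sign-flip permutation tests over the 5 DENR libraries, all two-sided, with the Benjamini-Hochberg adjustment over 9 tests. Functions were tested on simulated data. Tools were scipy 1.17.1, pandas 2.3.3 and numpy 2.4.6 under Python 3.11.15.

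The positions, gene lists and tests were chosen with earlier results of these data known. Named were genes with a position in 2 or more lists, those of the 10 best ranks of score, up to 10 with 3 or more positions, up to 10 each nearest the start codon (30 nt) and cap (5 nt), listed-group genes with a position, and whatever their values Ppip5k2, Atf4, Atf5, Denr, Mcts1, Eif2d and the reporter genes of the study. Alternatives changed the minimum score, merging, annotation, copy number, transcript, libraries, distance, comparison region and uORF start codons. Left out were 187 3′ UTR and 21 CDS positions of Lars2 or Acvr2b, 7 mitochondrial positions, and 1 position in the CDS of a transcript of another type. Of the positions that the naming rule covers near the start codon, those of 1 gene are not reported here.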

Additional observations from a re-analysis of the deposited data

How the results depend on the processing

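Of 118 alternative values of the 9 tested differences, 6 changed sign, all for uridine at the listed base of 5′ UTR against CDS sites, where the difference was 0.824 percentage points. It was -0.249 with sites merged within 15 nt, -8.24 with single-annotation sites, -22.3 against the 3′ UTR and -2.85 at the base 1 nt 3′, and ran from -0.691 to 4.35 with each library left out in turn, below 0 without DENR overexpressing replicate 2 and without non-transfected replicate 1. The cause was not tested. None of the 9 differences passed 0.05 under any setting, but in a design this small that says nothing about stability.

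The number of 5′ UTR positions fell from 232 to 140, and of those in 2 or more lists from 13 to 8, at a minimum score of 2. At a minimum score of 10 they fell to 3 and 0, and none of the tested differences could be computed since too few sites were left. They were 150 and 7 with sites merged within 15 nt in each library before the libraries were joined, 144 with a single annotation, and 136 to 228 and 7 to 13 with each library left out, the lowest without DENR overexpressing replicates 2 or 3. Without Ppip5k2, Zfhx3, Pappa, Nek11 and Hoxb6, 5 repeated positions were left.

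With the replicate number as a replicate block (numbers 1 and 2), the difference in 5′ UTR share was 2.17 percentage points and that in relative position -0.20, and no direction changed. By their labels the samples share only a number. The correlation of same-numbered deviations over 928 genes was -0.033. With so few libraries that value cannot tell whether same-numbered libraries were prepared together. Depth limits every count of absent genes, and no group had the 4 libraries that a check for outlying values needs.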
